A study of Mus musculus with 100 samples.

Results

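Scx, Tnmd, Mkx, Thbs4, Kera, Tppp3 and Egr2 are genes used as markers of tendon and ligament cells. Their rows were taken by gene symbol from a table of RNA-seq read counts for 17310 mouse genes, and all 7 were present and passed the filter on low counts, which removed 0 genes. The samples were whole knee joints of mice, injured at an age of 10 weeks, of the inbred strains STR/ort, C57BL/6 (the substrain C57BL/6J by the study's methods) and MRL/MpJ, the first labelled as susceptible to post-traumatic osteoarthritis (PTOA) and the last as not susceptible. The right knee was loaded in compression at 10 to 12 N until the anterior cruciate ligament ruptured, and both the injured and the uninjured contralateral knee were collected 1-day, 1-week or 2-weeks later. Joints taken before any injury (0-day) came from all 3 strains. Mice of the later times were thus older at collection, so time after injury and age cannot be told apart across times. The design compared the strains before injury, the injured with the contralateral joint within a strain, and the response to injury between strains. The 100 libraries formed 21 groups of 5, apart from groups of 4 at 0-day and for the uninjured joints of MRL/MpJ and STR/ort at 1-week. The control was the other knee of an injured mouse, not a sham-operated joint, and no allele or agent beyond strain and injury was labelled.

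Total counts ran from 6182016 to 20986027 per library, with a median of 10582592. The labels put 0-day, 1-day and 1-week in batch 1 (70 libraries) and 2-weeks in batch 2 (30 libraries), so a difference between 2-weeks and an earlier time cannot be told apart from one between batches. Joints were cut with traces of soft tissue left on, and the markers of other tissues were present: 8 of 8 cartilage genes, 7 of 7 bone genes and 12 of 12 fast skeletal muscle genes were detected. The summed level of the muscle genes ran from 18089 to 149818 CPM per library (counts scaled to a common library size). In such bulk tissue, fewer cells of a type and less RNA per cell cannot be told apart.

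Tendons and ligaments are built by fibroblasts (tenocytes and ligament fibroblasts) that lay down aligned type I collagen. Scleraxis (Scx), a basic helix-loop-helix transcription factor, marks their progenitors, and Mohawk (Mkx), a homeobox factor, supports the growth of collagen fibrils. Egr2, a zinc-finger factor used as a tendon marker, is also an immediate early gene and a regulator of myelination in Schwann cells. Tenomodulin (Tnmd) is a membrane glycoprotein of mature tenocytes that depends on Scx. Thrombospondin 4 (Thbs4) is a matrix glycoprotein of tendon and its attachment to muscle, keratocan (Kera) is a small leucine-rich proteoglycan known from cornea and tendon, and Tppp3 is a tubulin-binding protein that marks the tendon sheath. In the knee such cells lie in the cruciate and collateral ligaments, the patellar tendon and the menisci.

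Levels are given as CPM on library sizes scaled by the trimmed mean of M-values (TMM). Per kilobase of exon, Thbs4 had the highest mean level over the 100 libraries at 207 CPM per kb, then Tnmd (46.0), Tppp3 (26.8), Kera (18.7), Scx (6.66), Egr2 (1.96) and Mkx (1.53). Without the 4 STR/ort libraries at 0-day the value for Egr2 was 1.11, below that of Mkx (1.53). Mkx had as few as 10 counts in a library, Scx ranged from 20 to 263 counts, and Egr2 had 412 to 892 counts in STR/ort at 0-day and as few as 12 elsewhere. In the GRCm38 build (GENCODE M21), Scx lies at chr15:76457452-76459458 on the plus strand, within the span of Bop1 on the opposite strand but sharing 0 exon bases with it. Tnmd lies at chrX:133850980-133865577 (plus), Thbs4 at chr13:92751590-92794818 (minus), Kera at chr10:97606879-97613692 (plus), Tppp3 at chr8:105467493-105471526 (minus) and Egr2 at chr10:67535475-67542188 (plus). Mkx, on chromosome 18, shares 201 exon bases with AC148004.2 on the same strand, and reads in them cannot be assigned to 1 of the pair.

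The 7 genes did not share 1 profile over the 21 groups. Scx, Tnmd, Mkx, Thbs4 and Kera had their highest mean in injured STR/ort joints at 1-week. There Scx stood at 22.1 ± 5.49 CPM (SD, n = 5), Tnmd at 329 ± 22.2, Mkx at 11.2 ± 1.21, Thbs4 at 2243 ± 478 and Kera at 178 ± 16.1. The lowest group mean was 9.02-fold below that for Scx (2.45 ± 0.488 CPM, uninjured MRL/MpJ at 1-week), 27.2-fold for Tnmd (12.1 ± 1.59, uninjured C57BL/6 at 2-weeks) and 4.00-fold for Mkx (2.80 ± 0.865, MRL/MpJ at 0-day). For Thbs4 it was 18.1-fold (124 ± 4.75, uninjured MRL/MpJ at 2-weeks) and for Kera 14.6-fold (12.2 ± 2.46, uninjured C57BL/6 at 2-weeks). Without TMM scaling the lowest group for Tnmd was uninjured MRL/MpJ at 2-weeks instead. Tppp3 was highest in uninjured STR/ort joints at 1-week (88.3 ± 31.5 CPM, n = 4) and lowest in injured MRL/MpJ joints at 1-day (25.5 ± 3.47, n = 5). Egr2 was highest in STR/ort joints before injury (71.1 ± 19.7 CPM, n = 4), 38.2-fold above its lowest group (1.86 ± 0.625, uninjured MRL/MpJ at 2-weeks).

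When the 21 group means were ordered, the libraries of neighbouring groups seldom separated. For Tnmd, 2 of the 20 neighbouring pairs did not overlap: injured STR/ort at 1-week above injured C57BL/6 at 1-week, and uninjured MRL/MpJ at 1-week above the same joints at 2-weeks. Scx and Thbs4 also had 2 such pairs, Kera and Egr2 had 1, and Mkx and Tppp3 had 0. For Scx, Tnmd, Thbs4 and Kera the top group was one of them, with every library of injured STR/ort at 1-week above every library of the next group. For Egr2 it was STR/ort at 0-day.

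**Figure D1:**
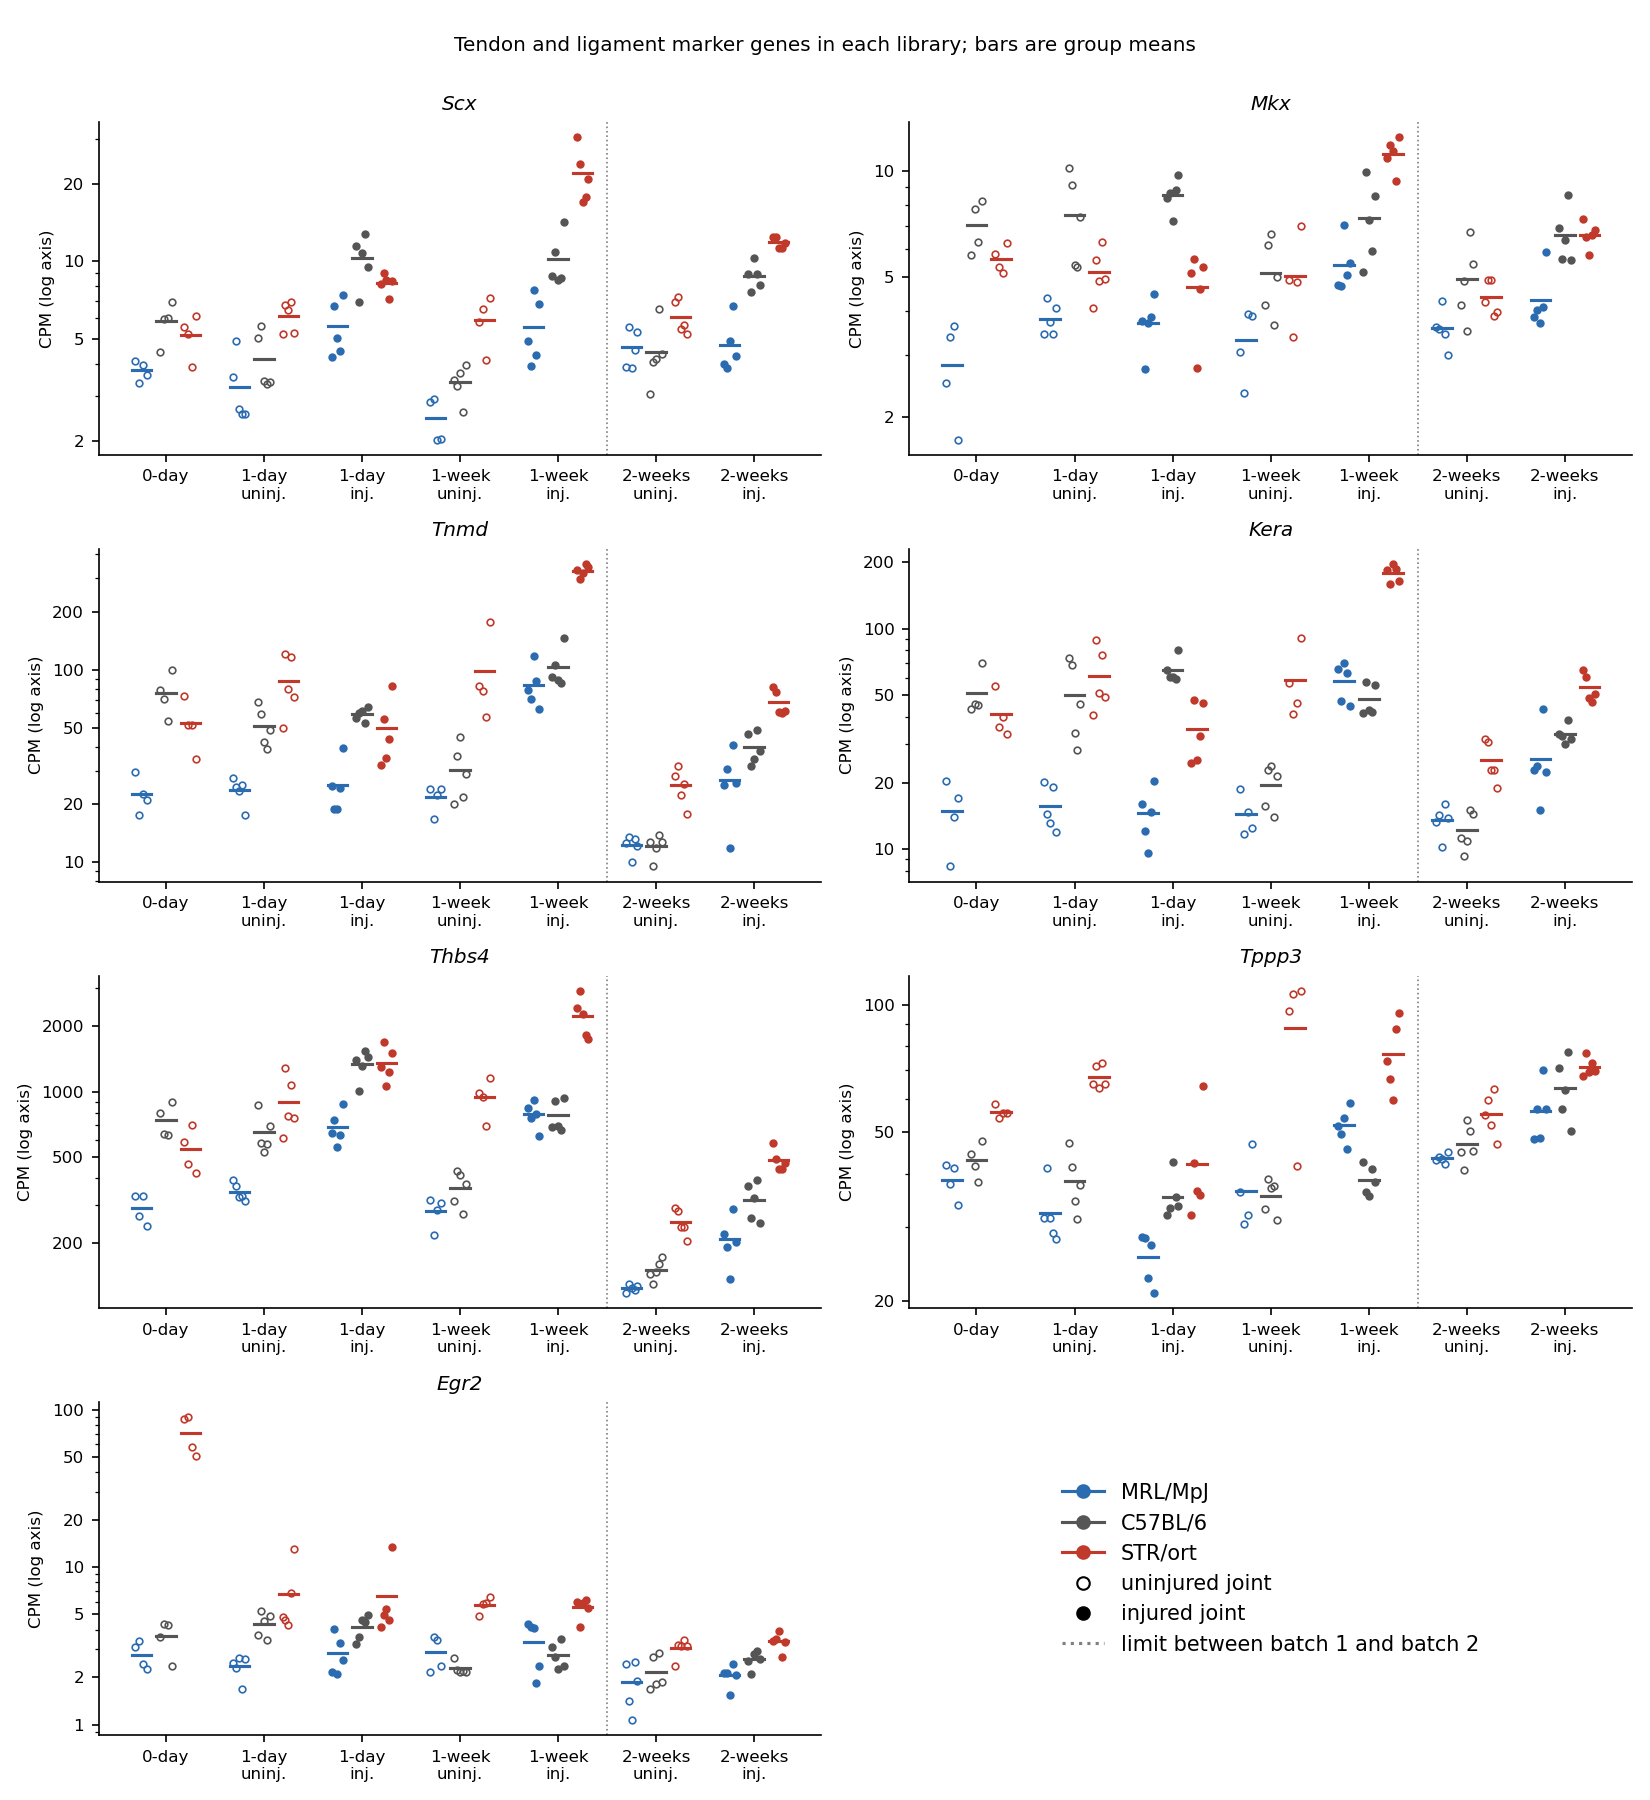
Level of each gene (CPM, log axis) in every library, by strain, time and joint, with 4 or 5 libraries per group. Points are single libraries and bars are group means. The 5 injured STR/ort libraries at 1-week are the highest for Tnmd (298 to 356 CPM), and the 4 STR/ort libraries at 0-day are the highest for Egr2 (50.6 to 89.2 CPM).

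To ask how the strains differed before injury, the 0-day joints were compared in pairs with edgeR's quasi-likelihood test. A call needed a fold change above 1.5 and an adjusted p (Benjamini-Hochberg, over all 17310 genes) below 0.05, here and in all comparisons that follow. MRL/MpJ joints held the least of the tendon genes: 5 of 7 were higher in C57BL/6 (9.64% of all genes were) and 5 of 7 were higher in STR/ort (8.34%). Tnmd stood at 29.6, 17.7, 22.6 and 21 CPM in the 4 MRL/MpJ joints, at 78.8, 70.5, 54.5 and 100 CPM in C57BL/6, and at 72.8, 51.8, 52.0 and 34.6 CPM in STR/ort. No MRL/MpJ library reached the lowest library of either other strain. The log2 fold change over MRL/MpJ was 1.77 ± 0.21 (SE) in C57BL/6 (adjusted p = 2.63e-06) and 1.22 ± 0.21 in STR/ort (adjusted p = 0.000184).

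Kera, the corneal and tendon proteoglycan, followed the same order. Its levels were 20.5, 8.37, 14.0 and 17.1 CPM in MRL/MpJ, 43.5, 45.4, 45.2 and 70.3 CPM in C57BL/6, and 54.8, 35.9, 40.0 and 33.3 CPM in STR/ort. Again the MRL/MpJ libraries lay below all others, with log2 fold changes of 1.80 ± 0.22 for C57BL/6 (adjusted p = 3.95e-06) and 1.46 ± 0.22 for STR/ort (adjusted p = 5.12e-05). Thbs4 was higher than in MRL/MpJ by 1.39 ± 0.15 and 0.90 ± 0.15 in C57BL/6 and STR/ort, and the homeobox factor Mkx by 1.36 ± 0.20 and 1.00 ± 0.21, again with no overlap. Scx was called higher in C57BL/6 alone (0.67 ± 0.19, adjusted p = 0.00891). Its value in STR/ort was 0.46 with a 95% interval of 0.05 to 0.87. The Scx call was lost without MRL/MpJ replicate 2 or without C57BL/6 replicate 4, where the log2 fold change was 0.58. Normalization on housekeeping genes (RUVg) with 2 factors kept 0 of the 5 calls between C57BL/6 and MRL/MpJ, with log2 fold changes from 0.38 (Scx) to 1.07 (Mkx), and with 1 factor Scx was lost at 0.47.

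Markers of other tissues also differed between these strains. The 12 fast muscle genes summed to 93216 to 113718 CPM in MRL/MpJ, 42506 to 68999 CPM in C57BL/6 and 98122 to 113987 CPM in STR/ort. The 6 genes of synovial lining and fibroblasts, among them the lubricin gene Prg4, summed to 1138 to 1510 CPM in MRL/MpJ, 1750 to 2930 CPM in C57BL/6 and 2735 to 6362 CPM in STR/ort, so that the MRL/MpJ libraries lay below both other strains, as they did for the tendon genes. The 7 bone genes summed to 1537 to 2091, 2309 to 3246 and 2018 to 2808 CPM in the same order. Over 9 marker lists of other tissues and cells, the summed level did not overlap in 4 between C57BL/6 and MRL/MpJ (higher for bone, synovium and macrophages, lower for fast muscle) and in 5 between STR/ort and MRL/MpJ (higher for synovium, slow muscle, fat and Schwann cells, lower for marrow neutrophils). Between STR/ort and C57BL/6 they were 3, higher for fast and slow muscle and lower for macrophages. The part of tissue composition in the strain differences was not tested.

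Between STR/ort and C57BL/6 at 0-day, 1 of 7 members was higher, against 7.82% of all genes. That gene was Egr2, at 86.6, 89.2, 58.1 and 50.6 CPM in STR/ort, 3.62, 4.34, 4.29 and 2.36 CPM in C57BL/6, and 3.09, 3.37, 2.41 and 2.24 CPM in MRL/MpJ. All 4 STR/ort libraries were more than 10-fold above every library of the other strains. The log2 fold change was 4.23 ± 0.20 over C57BL/6 (adjusted p = 1.68e-11) and 4.63 ± 0.22 over MRL/MpJ (adjusted p = 2.44e-11). Tppp3 was above both other strains in every STR/ort library but below the fold limit (0.53 ± 0.09 over MRL/MpJ, adjusted p = 8.07e-05, and 0.34 ± 0.08 over C57BL/6). The remaining members were not called between STR/ort and C57BL/6. The interval ran from -0.95 to -0.16 for Tnmd (adjusted p = 0.0274, fold below the limit), from -0.75 to 0.06 for Kera and from -0.58 to 0.15 for Scx. Thbs4 stood at -0.49 ± 0.15, and it was called lower at -0.60 after RUVg with 1 factor.

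Other immediate early genes differed in the same direction. All 10 immediate early genes of a list without it (Egr1, Egr3, Fos, Fosb, Jun, Junb, Ier2, Nr4a1, Atf3 and Klf4) were higher in STR/ort at 0-day than in either other strain, with a median log2 fold change of 3.06 over C57BL/6 and 2.81 over MRL/MpJ. The median of all genes lay between -0.055 and 0.045 in every comparison made here. Egr1, a zinc-finger factor of the same family, had the smallest adjusted p of the list (it also stands in the list of tendon regulators below), with log2 fold changes of 4.03 ± 0.18 and 4.30 ± 0.19. The summed level of the list was 1488 to 2503 CPM in STR/ort, 293 to 340 CPM in C57BL/6 and 263 to 304 CPM in MRL/MpJ. The 7 Schwann cell and myelin genes, which include Mbp and Sox10, differed far less. They summed to 162 to 176 CPM in STR/ort, 133 to 166 CPM in C57BL/6 and 132 to 148 CPM in MRL/MpJ, so the STR/ort libraries lay above those of MRL/MpJ and overlapped those of C57BL/6. Of these 7, Pmp22, a protein of compact myelin, was higher in STR/ort than in MRL/MpJ (0.81 ± 0.09) and Mag, a myelin adhesion protein, was lower (-1.08 ± 0.32), and none was called against C57BL/6.

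The promoter of Egr2 is shown because Egr2 and the listed immediate early genes were higher in STR/ort together. Immediate early genes are known targets of serum response factor, which binds the CArG box. RefSeq lists 5 windows for Egr2. The one before its most upstream start (chr10:67535249-67535498) holds no CArG box and 1 E-box, and the other 4 hold 1 CArG box each. Capitals mark that box in 2 of the 4, windows of 250 bases before an annotated start (RefSeq, GRCm38.p6, plus strand, 5′ to 3′). The remaining 2 overlap the first shown and hold the same CArG box. That first window also holds 1 E-box (CATGTG, 109 bases before the start, left in lower case), as do the 2 that overlap it. The second window shown holds 0. Both windows shown lie within the span of Egr2, before starts downstream of the most upstream one, and their overlap with exons was not tested. The third window is that of Thbs4 (minus strand), the most abundant member, with an E-box (CANNTG) in capitals, the motif bound by factors of the class of Scx.
Egr2, chr10:67537619-67537868: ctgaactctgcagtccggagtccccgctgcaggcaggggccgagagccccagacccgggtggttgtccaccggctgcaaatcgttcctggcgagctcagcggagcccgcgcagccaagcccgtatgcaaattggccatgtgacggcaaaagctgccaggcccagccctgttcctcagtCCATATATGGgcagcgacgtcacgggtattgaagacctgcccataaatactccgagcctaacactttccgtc
Egr2, chr10:67537316-67537565: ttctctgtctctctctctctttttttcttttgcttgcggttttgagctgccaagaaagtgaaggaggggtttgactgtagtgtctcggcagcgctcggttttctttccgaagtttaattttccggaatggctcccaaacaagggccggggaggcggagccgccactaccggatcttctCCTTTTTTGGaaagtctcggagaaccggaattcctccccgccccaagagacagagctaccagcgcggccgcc
Thbs4, chr13:92794819-92795068: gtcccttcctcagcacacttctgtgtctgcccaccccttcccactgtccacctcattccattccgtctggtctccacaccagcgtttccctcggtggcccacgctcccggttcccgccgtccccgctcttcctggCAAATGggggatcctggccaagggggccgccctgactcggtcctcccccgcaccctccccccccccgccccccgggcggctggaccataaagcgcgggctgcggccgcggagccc
In both Egr2 windows shown, 62 bases lie between the box and the start. A search of both strands found a CArG box in 1.47% of the 32851 RefSeq promoter windows of this length and an E-box in 66.2%. The E-box is thus common to most promoters. The windows of Tnmd and Kera held neither motif. A match is a description of the letters and not of binding. The sequences are those of the reference build and not of STR/ort, and the cause of the strain difference was not tested.

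At 1-day Scx and Thbs4 were higher in injured than in contralateral joints of MRL/MpJ and C57BL/6, 2 of 7 members in each (1.53% and 4.26% of all genes were). In STR/ort 3 of 7 were lower than in the contralateral joint, Tnmd, Kera and Tppp3 (2.7% of all genes were). Scx read 11.5, 6.93, 10.8, 12.8 and 9.51 CPM in injured C57BL/6 joints against 5.05, 5.61, 3.43, 3.33 and 3.40 CPM in the contralateral joints. The groups did not overlap, and the log2 fold change was 1.34 ± 0.18 (adjusted p = 2.51e-06). In MRL/MpJ, Scx read 4.25, 6.72, 5.03, 4.48 and 7.41 CPM against 3.55, 4.88, 2.66, 2.55 and 2.54 CPM. One contralateral library lay within the injured range, and the log2 fold change was 0.82 ± 0.20 (adjusted p = 0.0134). This call was lost without injured replicate 2 or uninjured replicate 4 or 5, with adjusted p up to 0.0656. In STR/ort, Scx was 8.20, 9.03, 8.48, 7.16 and 8.38 CPM against 5.2, 6.78, 6.45, 6.94 and 5.27 CPM. These libraries did not overlap either, but the difference was 0.41 ± 0.18 and was not called (adjusted p = 0.149). RUVg with 1 or 2 factors called it, at 0.59 and 0.67.

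Thbs4, the thrombospondin, was 1.01 ± 0.17 higher in injured MRL/MpJ joints (adjusted p = 0.000164) and 1.04 ± 0.17 higher in C57BL/6 (adjusted p = 2.61e-05) at 1-day. Its value in STR/ort was 0.58 ± 0.16 (adjusted p = 0.0196), a fold just below the limit of 1.5, with an interval of 0.24 to 0.91, and it was called at 0.61 with the replicate number as a block. In STR/ort, Tppp3 read 31.9, 42.3, 36.4, 35.7 and 64.5 CPM after injury against 64.9, 71.8, 63.6, 73.0 and 64.9 CPM in the contralateral joint. Replicate 5 alone of the injured joints entered the contralateral range. The log2 fold change was -0.71 ± 0.14 (adjusted p = 0.000665), and that of Tnmd was -0.85 ± 0.22 (adjusted p = 0.0116). Kera was lower by 0.82 on the log2 scale (SE 0.24, adjusted p = 0.0236), at 24.6, 47.4, 25.4, 32.7 and 46.0 CPM after injury against 40.5, 88.9, 50.9, 76.2 and 49.0 CPM, with overlapping groups. Before injury the STR/ort means were 52.8 CPM for Tnmd, 41.0 CPM for Kera and 56.0 CPM for Tppp3. At 1-day they were 49.7, 35.2 and 42.1 CPM in injured and 87.9, 61.1 and 67.6 CPM in contralateral joints. Injured joints were not tested against 0-day joints. The Tnmd call was lost without uninjured replicate 4 (-0.71). That of Kera was lost without injured replicate 1, 3 or 4 or uninjured replicate 2 or 4 (log2 fold change from -0.94 to -0.64 over single libraries left out, adjusted p up to 0.0919). RUVg with 2 factors called none of the 3 decreases, at -0.40, -0.34 and -0.52 for Tnmd, Kera and Tppp3, and with 1 factor Kera was lost (-0.67, adjusted p = 0.0827). Mkx and Egr2 were called in no strain at 1-day, with log2 fold changes from -0.17 to 0.23 for Mkx and from -0.08 to 0.31 for Egr2. Replicate 5 of STR/ort stood apart for Egr2 in both joints, at 13.4 CPM in the injured and 13.0 CPM in the uninjured joint against 4.19 to 6.85 CPM in the other 8 libraries, and its immediate early sums were 993 and 1096 CPM against 290 to 577 CPM.

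Other genes of tendon biology were read from fixed lists. Of 14 genes of tendon matrix, 5 rose in C57BL/6, 1 rose in MRL/MpJ and 2 fell in STR/ort, with medians of 0.37, 0.26 and -0.12. Those with the smallest adjusted p were Col3a1, fibrillar collagen of repair tissue, in C57BL/6 (1.88 ± 0.18) and in MRL/MpJ (0.72 ± 0.17), and Col14a1, a fibril-associated collagen, in STR/ort (-1.02 ± 0.17). Of 15 regulators and growth factors of tendon, Tgfb3, a transforming growth factor, rose in C57BL/6 (0.62 ± 0.12) and Mstn, which encodes the muscle growth inhibitor myostatin, fell in STR/ort (-1.01 ± 0.27). The fast muscle sum in STR/ort was 21047 to 54037 CPM after injury and 38887 to 67778 CPM in the contralateral joint, and its part in the decreases was not tested. The synovial and fibroblast genes summed to 2499 to 4319 CPM in injured and 1472 to 2360 CPM in uninjured MRL/MpJ joints and to 3224 to 4520 against 1885 to 2518 CPM in C57BL/6, both without overlap. In STR/ort the sums overlapped, at 5736 to 10229 and 6757 to 9542 CPM. In C57BL/6 the macrophage sum was also higher after injury (644 to 779 against 459 to 522 CPM) and the marrow neutrophil sum lower (9680 to 12397 against 14017 to 17305 CPM), both without overlap. Of the 9 lists, 1 was apart in MRL/MpJ, 3 in C57BL/6 and 0 in STR/ort. Their part in the increases of Scx and Thbs4 was not tested.

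At 1-week the injured joints of all 3 strains held more Scx, Tnmd, Thbs4 and Kera than the contralateral joints. Of the 7 members, 4 were higher in MRL/MpJ and in C57BL/6 and 5 in STR/ort, against 2.93%, 4.75% and 5.67% of all genes. Tnmd read 78.9, 70.9, 118, 87.3 and 62.4 CPM in injured MRL/MpJ joints against 24.2, 16.9, 22.4 and 24.1 CPM. In C57BL/6 it read 91.8, 106, 89.1, 85.6 and 146 CPM against 20.2, 35.7, 45.1, 21.8 and 28.7 CPM. In STR/ort it read 329, 298, 319, 356 and 342 CPM against 82.5, 77.6, 56.8 and 178 CPM. Injured and contralateral libraries were apart in every strain, and the log2 fold changes were 1.96 ± 0.26, 1.80 ± 0.24 and 1.73 ± 0.25 (adjusted p = 5.97e-06, 1.95e-06 and 5.03e-06). The uninjured STR/ort joints overlapped the range of Tnmd in the injured joints of both other strains.

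Scx, the factor above Tnmd, rose by 1.23 ± 0.25 in MRL/MpJ, 1.62 ± 0.21 in C57BL/6 and 1.90 ± 0.20 in STR/ort (adjusted p = 0.00188, 1.19e-06 and 5.57e-08). Its levels in STR/ort were 30.5, 24, 17.0, 17.8 and 20.9 CPM after injury and 5.78, 6.53, 4.11 and 7.21 CPM in the contralateral joint. In MRL/MpJ they were 4.91, 3.92, 7.71, 4.32 and 6.83 CPM against 2.83, 2.91, 2.02 and 2.04 CPM. The highest injured MRL/MpJ library was thus close to the highest uninjured STR/ort library. Kera was higher by 2.04 ± 0.21, 1.32 ± 0.18 and 1.6 ± 0.19 and Thbs4 by 1.51 ± 0.17, 1.13 ± 0.16 and 1.24 ± 0.17 in MRL/MpJ, C57BL/6 and STR/ort, each with no overlap between injured and contralateral libraries. In C57BL/6 the means at 0-day and in contralateral and injured joints at 1-week were 51.1, 19.6 and 47.9 CPM for Kera. They were 743, 361 and 778 CPM for Thbs4, 76.0, 30.3 and 104 CPM for Tnmd, and 5.85, 3.39 and 10.2 CPM for Scx. The contralateral joints thus had lower means than at 0-day. Injured joints were not tested against 0-day joints. Mkx passed the test in STR/ort. It read 10.9, 11.9, 11.4, 9.35 and 12.5 CPM against 4.90, 3.38, 4.85 and 6.98 CPM there, a log2 fold change of 1.15 ± 0.20 (adjusted p = 0.000112). In MRL/MpJ it was 0.74 ± 0.23 (adjusted p = 0.0570) and in C57BL/6 0.56 ± 0.19 (adjusted p = 0.0538), and with DESeq2 the MRL/MpJ value of 0.74 was called. Tppp3 and Egr2 were called in no strain, with intervals for Tppp3 of 0.18 to 0.91 in MRL/MpJ, -0.19 to 0.50 in C57BL/6 and -0.55 to 0.15 in STR/ort.

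**Figure D2:**
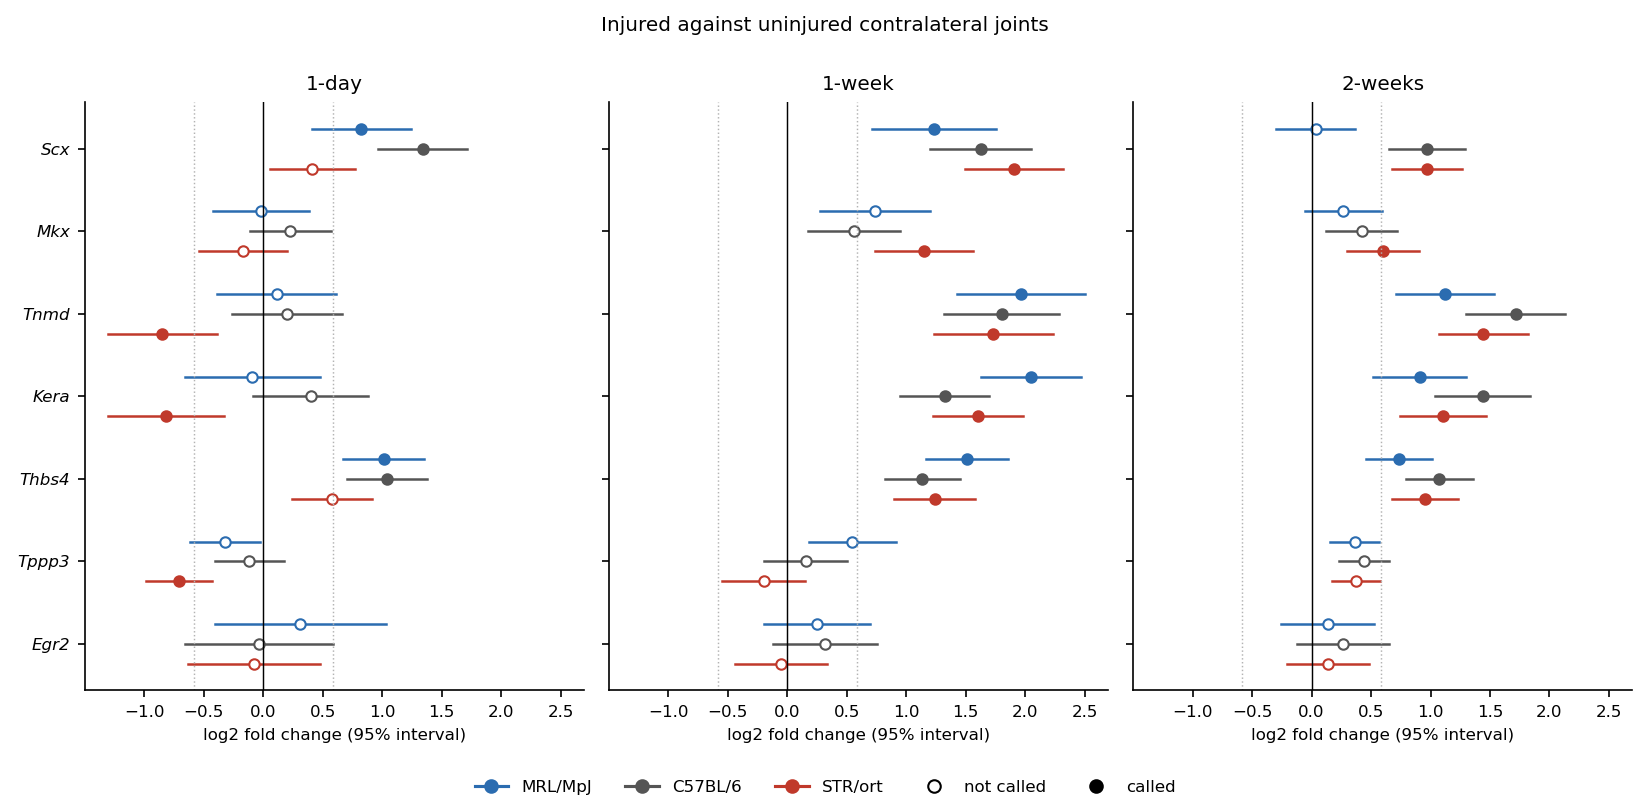
Log2 fold change of each gene in the injured over the uninjured contralateral joint, by strain and time, with 95% intervals from edgeR. Filled points were called (adjusted p below 0.05 and fold above 1.5) and open points were not. Scx, Tnmd, Thbs4 and Kera are called in all 3 strains at 1-week, while Tnmd, Kera and Tppp3 are called below zero in STR/ort at 1-day.

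Of the 14 tendon matrix genes at 1-week, 10 of 14 rose in MRL/MpJ, 12 of 14 in C57BL/6 and 11 of 14 in STR/ort, with medians of 1.00, 1.18 and 0.86. Col14a1 led in MRL/MpJ (2.81 ± 0.17) and in C57BL/6 (2.32 ± 0.15), and Col12a1, a related fibril-associated collagen, in STR/ort (1.99 ± 0.21). Of the 15 regulators, 2 rose in C57BL/6 and 2 in STR/ort, led by Tgfb3 (0.81 ± 0.12 and 0.84 ± 0.13), and none passed in MRL/MpJ. The synovial and fibroblast sum was higher in injured joints without overlap in MRL/MpJ (2725 to 3330 against 1408 to 1492 CPM) and in C57BL/6 (2722 to 3067 against 1004 to 1462 CPM), and overlapped in STR/ort (7546 to 11261 against 6358 to 19032 CPM). The fast muscle sum had a lower mean in the injured joints of each strain, with overlapping ranges. It was 57270 to 95368 CPM in injured and 79998 to 117408 CPM in uninjured MRL/MpJ joints, 36760 to 71268 against 54148 to 93720 CPM in C57BL/6, and 18089 to 39557 against 35689 to 67940 CPM in STR/ort. The marrow neutrophil sum in STR/ort was lower in injured joints without overlap (8099 to 11560 against 13225 to 17711 CPM), and so was the slow muscle sum in C57BL/6 (79.7 to 189 against 292 to 828 CPM). The other lists overlapped between the joints of each strain. The part of these tissues in the increases was not tested.

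At 2-weeks Tnmd, Kera and Thbs4 were higher in the injured joints of all 3 strains, Scx in those of C57BL/6 and STR/ort, and Mkx in those of STR/ort. Of the 7 members, 3 rose in MRL/MpJ, 4 in C57BL/6 and 5 in STR/ort, against 1.14%, 2.88% and 4.34% of all genes. Scx read 3.98, 3.85, 4.90, 6.70 and 4.28 CPM in injured MRL/MpJ joints against 3.88, 5.57, 3.83, 4.52 and 5.30 CPM, a difference of 0.03 ± 0.16 with an interval of -0.30 to 0.36. It read 8.93, 7.61, 10.3, 8.95 and 8.08 CPM against 3.03, 4.07, 4.16, 6.52 and 4.34 CPM in C57BL/6, and 12.5, 12.4, 11.3, 11.3 and 11.8 CPM against 6.92, 7.24, 5.46, 5.63 and 5.23 CPM in STR/ort. In the last 2 strains no contralateral library reached an injured one, and the log2 fold change was 0.97 ± 0.16 in C57BL/6 and 0.97 ± 0.14 in STR/ort (adjusted p = 5.59e-05 and 7.65e-06).

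The membrane and matrix genes were called in every strain. Tnmd was 1.12 ± 0.20 higher in injured MRL/MpJ joints, 1.72 ± 0.20 in C57BL/6 and 1.44 ± 0.18 in STR/ort (adjusted p = 0.00106, 1.11e-06 and 6.53e-07). Kera was higher by 0.91 ± 0.19, 1.44 ± 0.20 and 1.11 ± 0.18, and Thbs4 by 0.74 ± 0.14, 1.07 ± 0.14 and 0.95 ± 0.14. In MRL/MpJ, Tnmd and Kera overlapped between the joints, as injured replicate 3 stood at 11.9 and 15.1 CPM, while Thbs4 did not overlap. Mkx was called in STR/ort (0.60 ± 0.15, adjusted p = 0.00523). That call sat at the fold limit and was lost without STR/ort injured replicate 1 or uninjured replicate 4 or 5 (0.56, 0.56 and 0.57), and at 0.58 with size factors of DESeq2, with RUVg with 2 factors and with edgeR's own filter. Tppp3 was 0.36 ± 0.10, 0.44 ± 0.10 and 0.37 ± 0.10 higher in MRL/MpJ, C57BL/6 and STR/ort, below the fold limit. Egr2 was not called in any strain. Tendon matrix rose in 8, 9 and 11 of 14 genes in the same order, with Col14a1 (1.99 ± 0.21) and Col3a1 (1.82 ± 0.19) in MRL/MpJ and Col5a1, which takes part in the start of fibrils, in C57BL/6 (1.05 ± 0.11) and STR/ort (1.30 ± 0.11). Gdf5, a joint and tendon growth factor, led the regulators in C57BL/6 (1.87 ± 0.32) and STR/ort (1.96 ± 0.28). The fast muscle sums of injured and contralateral joints overlapped in each strain, at 69466 to 149818 and 79035 to 109822 CPM in MRL/MpJ, 89024 to 116426 and 73891 to 96502 CPM in C57BL/6, and 78114 to 110896 and 66791 to 110922 CPM in STR/ort. The synovial and fibroblast sums were higher after injury without overlap in MRL/MpJ (813 to 1600 against 556 to 707 CPM) and C57BL/6 (1069 to 1451 against 467 to 666 CPM), and overlapped in STR/ort (2234 to 2999 against 1229 to 2321 CPM). Without overlap, the cartilage sum was higher in injured STR/ort joints (4071 to 5951 against 2526 to 3562 CPM), as was that of Schwann cells (179 to 191 against 142 to 178 CPM), and the marrow neutrophil sum was lower in injured C57BL/6 joints (11100 to 14010 against 14643 to 17811 CPM). The part of these tissues in the increases was not tested.

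Whether the response to injury differed between strains was tested as the difference of the injury differences. At 1-day, 2 of 7 members differed between STR/ort and C57BL/6, both in the lower direction (2.48% of all genes): Kera by -1.22 ± 0.34 (adjusted p = 0.0314) and Scx by -0.93 ± 0.26 (adjusted p = 0.0310). Tnmd stood at -1.05 ± 0.32 with an adjusted p of 0.0564, and it was called without C57BL/6 uninjured replicate 1, STR/ort injured replicate 5 or STR/ort uninjured replicate 1 or 5 (-1.30 to -1.11). Tppp3 was called without C57BL/6 uninjured replicate 1 (-0.65) or STR/ort injured replicate 5 (-0.79). Kera changed by 0.40 in C57BL/6 and by -0.82 in STR/ort, and Scx by 1.34 and 0.41. Both calls were close to the threshold. Kera lost it without C57BL/6 injured replicate 5, C57BL/6 uninjured replicate 3, 4 or 5, STR/ort injured replicate 1, 3 or 4, or STR/ort uninjured replicate 2 or 4 (-1.19 to -1.04, adjusted p up to 0.0879). Scx lost it without C57BL/6 injured replicate 1 or 4, C57BL/6 uninjured replicate 3, 4 or 5, STR/ort injured replicate 4, or STR/ort uninjured replicate 2 or 4 (-0.89 to -0.83, adjusted p up to 0.0832). With the replicate number as a block Scx was lost (-0.93, adjusted p = 0.0504) and Tnmd was called (-1.08, adjusted p = 0.0315). Tendon matrix differed in the same comparison in 6 of 14 genes, all lower in STR/ort, led by Col14a1 (-2.33 ± 0.24).

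The remaining contrasts held few calls. At 2-weeks Scx differed between STR/ort and MRL/MpJ by 0.94 ± 0.22 (adjusted p = 0.0356), 1 of 7 members against 0.433% of all genes. The same difference between C57BL/6 and MRL/MpJ was 0.94 ± 0.23 with an adjusted p of 0.712, as 0 genes were called in that contrast. The STR/ort call was lost without any 1 of 13 libraries, which were MRL/MpJ injured replicates 1, 2, 3 and 5, MRL/MpJ uninjured replicates 1, 2, 4 and 5, STR/ort injured replicates 1, 2 and 5 and STR/ort uninjured replicates 3 and 5 (0.86 to 0.95, adjusted p up to 0.0839). It was also lost with the size factors of DESeq2 (0.91), with edgeR's own filter (0.88) and with all libraries in 1 fit (0.92). In the other contrasts edgeR called 0 of 7 members. At 1-day these were C57BL/6 against MRL/MpJ (0.318% of all genes called; 0 members at an unadjusted p below 0.05) and STR/ort against MRL/MpJ (0.162%; 1 member, Tnmd). At 1-week they were C57BL/6 against MRL/MpJ (0%; Kera), STR/ort against MRL/MpJ (0.884%; Tppp3) and STR/ort against C57BL/6 (0.491%; Mkx). At 2-weeks they were C57BL/6 against MRL/MpJ (0%; Tnmd and Scx) and STR/ort against C57BL/6 (0.0462%; 0 members). DESeq2 called 0 members in all 7. Tppp3 at 1-week (STR/ort against MRL/MpJ, -0.75, adjusted p = 0.149) was called lower with the replicate number as a block (-0.74, adjusted p = 0.0467), with all libraries in 1 fit (-0.71, adjusted p = 0.0411) and without STR/ort uninjured replicate 3 (-0.98, adjusted p = 0.00115). Scx at 2-weeks (C57BL/6 against MRL/MpJ) was called without MRL/MpJ injured replicate 4 (1.08, adjusted p = 0.0475). The intervals were wide: at 1-week that of Scx ran from -0.01 to 1.35 for STR/ort against MRL/MpJ, and that of Tppp3 from -1.25 to -0.24.

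The strains were next compared in the uninjured contralateral joints. At 1-week 7 of 7 members were higher in STR/ort than in MRL/MpJ (13.7% of all genes) and 6 of 7 were higher than in C57BL/6 (13.1%). Thbs4 read 987, 942, 697 and 1162 CPM in STR/ort, 314, 430, 411, 272 and 377 CPM in C57BL/6, and 317, 218, 286 and 306 CPM in MRL/MpJ. No library of the latter strains reached the STR/ort range, and the log2 fold changes of STR/ort were 1.77 ± 0.18 over MRL/MpJ and 1.41 ± 0.16 over C57BL/6 (adjusted p = 3.11e-09 and 4.83e-08). Tnmd (2.19 ± 0.27 and 1.72 ± 0.25) and Kera (2.05 ± 0.21 and 1.6 ± 0.19) were as far apart, and Tppp3, Egr2 and Scx differed by 1.29 ± 0.19, 1.02 ± 0.22 and 1.28 ± 0.27 from MRL/MpJ and by 1.32 ± 0.18, 1.36 ± 0.21 and 0.81 ± 0.24 from C57BL/6. Mkx was 0.62 ± 0.24 over MRL/MpJ (adjusted p = 0.0372) and 0.00 over C57BL/6, with an interval of -0.43 to 0.44. The Mkx call was lost without MRL/MpJ replicate 1 or 2 or STR/ort replicate 1, 3 or 4 (0.43 to 0.64, adjusted p up to 0.182), and Mkx (0.21) and Scx (1.72) were not called against MRL/MpJ after RUVg with 2 factors. Against C57BL/6, Scx was not called after RUVg with 1 or 2 factors (0.88 and 1.02).

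At 1-day, 5 of 7 members were higher in uninjured C57BL/6 than MRL/MpJ joints (9% of all genes), 6 of 7 in STR/ort than MRL/MpJ (13.1%) and 3 of 7 in STR/ort than C57BL/6 (5.73%). Tnmd was 1.15 ± 0.24 higher in C57BL/6 and 1.94 ± 0.24 higher in STR/ort than in MRL/MpJ, and 0.79 ± 0.22 higher in STR/ort than in C57BL/6. Tppp3 separated STR/ort from both other strains with no overlap (1.12 ± 0.14 and 0.84 ± 0.14). Mkx had a lower mean in STR/ort than in C57BL/6 (5.15 against 7.50 CPM), at -0.51 ± 0.17 with an adjusted p of 0.0257 and a fold below the limit, so that it was called lower without that limit. Scx in STR/ort over C57BL/6 (0.59 ± 0.19) was at the limit and was lost without C57BL/6 replicate 3, 4 or 5 or STR/ort replicate 2, 3 or 4 (0.50 to 0.57, adjusted p up to 0.0693) and with all libraries in 1 fit (0.58). The call of Egr2 in C57BL/6 over MRL/MpJ (0.92 ± 0.33) ended without MRL/MpJ replicate 2 or 4 or C57BL/6 replicate 2 or 5 (0.80 to 0.92, adjusted p up to 0.0799) and after RUVg with 1 or 2 factors (0.93 and 0.81). At 2-weeks, 4 of 7 were higher in STR/ort than MRL/MpJ (7.97%: Tnmd 1.02 ± 0.20, Thbs4 1.01 ± 0.14, Kera 0.89 ± 0.19 and Egr2 0.71 ± 0.19) and 3 of 7 than C57BL/6 (4.92%: Tnmd 1.04 ± 0.21, Kera 1.04 ± 0.20 and Thbs4 0.73 ± 0.14). Mkx stood at -0.19 ± 0.16 in STR/ort against C57BL/6. The Egr2 call was lost without MRL/MpJ replicate 3 (0.56) and after RUVg with 2 factors (0.55). Between uninjured C57BL/6 and MRL/MpJ joints edgeR called 0 of 7 members at 1-week (8.53% of all genes; 3 at an unadjusted p below 0.05, Thbs4, Kera and Mkx; DESeq2 called 1, Mkx) and 0 of 7 at 2-weeks (9.83%; 1, Mkx; DESeq2 called 0).

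**Figure D3:**
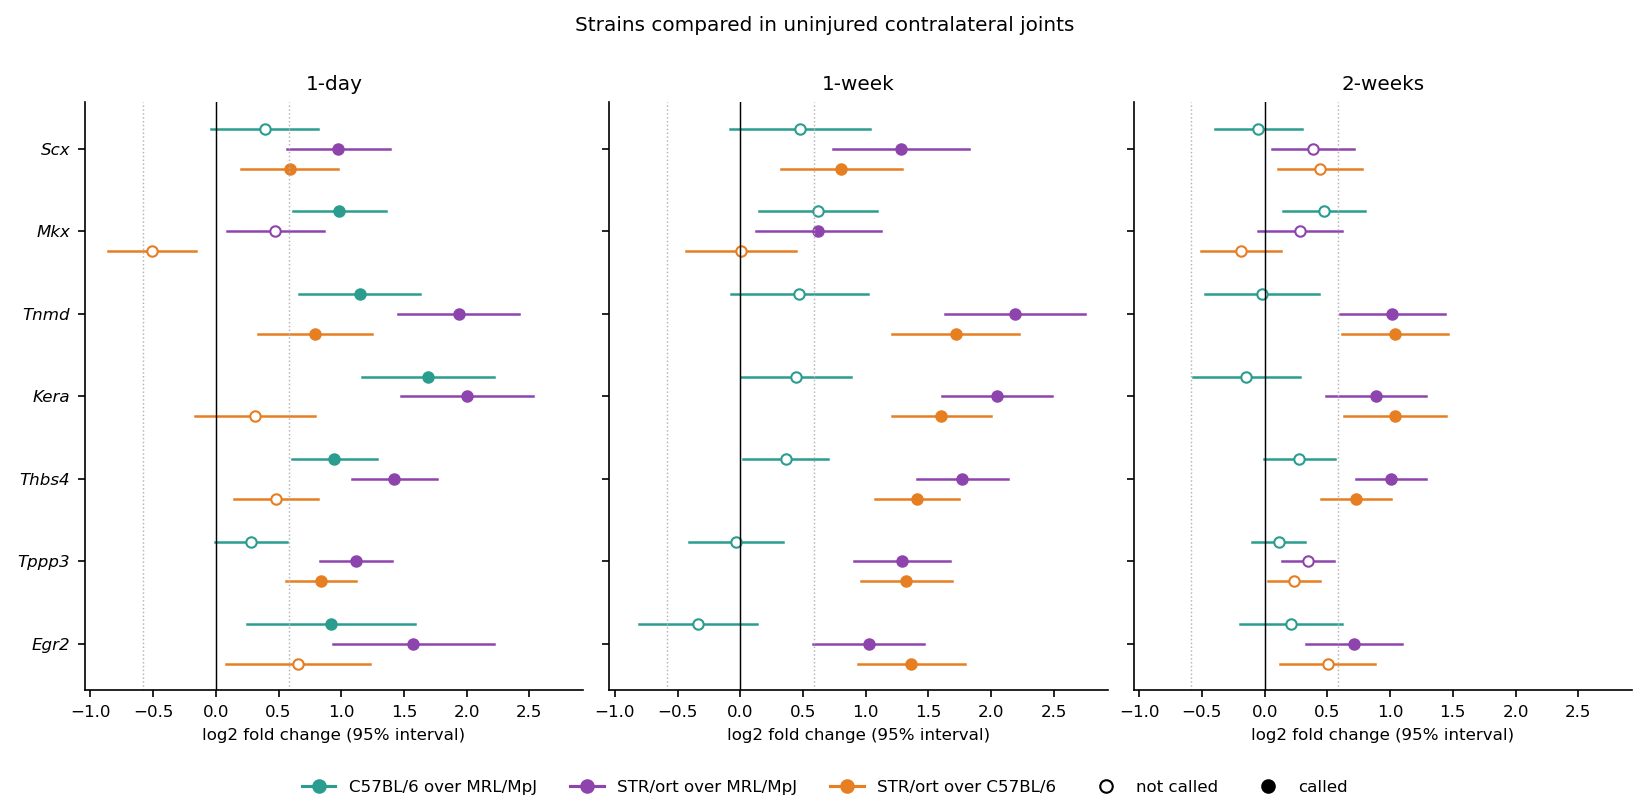
Log2 fold change of each gene between strains in uninjured contralateral joints, by time after injury, with 95% intervals from edgeR. Filled points were called and open points were not, and dotted lines mark a fold of 1.5. At 1-week the comparisons of STR/ort with MRL/MpJ are called for all 7 genes, and those of C57BL/6 with MRL/MpJ for 0.

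Other tissues also differed between these joints. At 1-day the synovial and fibroblast sum was 6757 to 9542 CPM in uninjured STR/ort joints, 1885 to 2518 CPM in C57BL/6 and 1472 to 2360 CPM in MRL/MpJ, the fast muscle sum 38887 to 67778, 45885 to 106134 and 79014 to 102693 CPM, and the bone sum 2276 to 3674, 2413 to 2896 and 1388 to 1825 CPM, in that order. At 1-week the fast muscle sum was 35689 to 67940 CPM in uninjured STR/ort joints, 54148 to 93720 CPM in C57BL/6 and 79998 to 117408 CPM in MRL/MpJ. The synovial and fibroblast genes summed to 6358 to 19032, 1004 to 1462 and 1408 to 1492 CPM in the same order. The bone sum was 2829 to 4142, 1363 to 1959 and 1376 to 1790 CPM, and the cartilage sum 4785 to 5900, 1468 to 3515 and 1753 to 2941 CPM. The tendon matrix genes were higher in STR/ort in 14 of 14 cases against MRL/MpJ and in 13 of 14 against C57BL/6. At 2-weeks the muscle sums were 66791 to 110922, 73891 to 96502 and 79035 to 109822 CPM and the synovial and fibroblast sums 1229 to 2321, 467 to 666 and 556 to 707 CPM, in the same order. Of the 9 lists, those apart between STR/ort and MRL/MpJ numbered 5, 5 and 4 in time order, those between STR/ort and C57BL/6 2, 4 and 1, and those between C57BL/6 and MRL/MpJ 3, 2 and 3. Against MRL/MpJ these were cartilage, bone and macrophages for C57BL/6 at 1-day and 2-weeks, and cartilage, bone, synovium and fat for STR/ort at 2-weeks. The part of dissection or tissue composition in the strain differences was not tested at any time.

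Injured joints were compared between strains in the same way. At 1-day, 5 of 7 members were higher in injured C57BL/6 than MRL/MpJ joints (10% of all genes), 5 of 7 in STR/ort than MRL/MpJ (10.2%), and 2 of 7, Kera and Mkx, were lower in STR/ort than in C57BL/6 (7.48%). Kera read 24.6 to 47.4 CPM in STR/ort, 59.4 to 80.4 CPM in C57BL/6 and 9.58 to 20.4 CPM in MRL/MpJ, so that all 3 strains were apart. It stood at -0.91 ± 0.24 in STR/ort against C57BL/6 (adjusted p = 0.00433) and at 2.18 ± 0.26 and 1.27 ± 0.26 over MRL/MpJ in C57BL/6 and STR/ort. Mkx was -0.91 ± 0.18 in STR/ort against C57BL/6 (adjusted p = 0.000191). The Kera difference between STR/ort and C57BL/6 was not called after RUVg with 1 or 2 factors (-0.57 and -0.55), that of Tppp3 between STR/ort and MRL/MpJ (0.73 ± 0.14) was lost without STR/ort replicate 5 (0.54), and that of Egr2 between the same strains (1.19 ± 0.30) after RUVg with 1 or 2 factors (1.21 and 1.19).

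At 1-week after injury all 7 members were higher in STR/ort than in C57BL/6 (7 of 7, 13.3% of all genes) and 6 of 7 were higher than in MRL/MpJ (15%). Kera was 1.88 ± 0.17 above C57BL/6 and 1.6 ± 0.17 above MRL/MpJ, Tnmd 1.65 ± 0.22 and 1.96 ± 0.23, and Scx 1.08 ± 0.17 and 1.95 ± 0.19. Tppp3 was 0.54 ± 0.16 over MRL/MpJ. Scx was also the 1 member higher in C57BL/6 than in MRL/MpJ (0.87 ± 0.19, adjusted p = 0.00136; 4.78% of all genes). Mkx over C57BL/6 (0.59 ± 0.18) was lost without C57BL/6 replicate 1 or 4 or STR/ort replicate 2, 3 or 5 (0.52 to 0.58) and after RUVg with 2 factors (0.47). Leaving out MRL/MpJ replicate 4 ended the call of Egr2 over that strain (0.72 ± 0.19 with it, 0.56 without), and it and Mkx were not called against MRL/MpJ after RUVg with 2 factors (1.37 and 0.54). At 2-weeks, 6 of 7 members were higher in injured STR/ort than MRL/MpJ joints (11%), 3 of 7 in STR/ort than C57BL/6 (5.4%) and 3 of 7 in C57BL/6 than MRL/MpJ (7.31%). Scx was 1.32 ± 0.14 higher in STR/ort and 0.89 ± 0.15 higher in C57BL/6 than in MRL/MpJ (adjusted p = 7.65e-09 and 3.06e-05), with every injured library of both strains above the 5 of MRL/MpJ. Smaller differences at 2-weeks crossed the fold limit when 1 library was left out. Over MRL/MpJ, Mkx in C57BL/6 (0.63 ± 0.14) did so without MRL/MpJ replicate 1 or 3 or C57BL/6 replicate 4 (down to 0.51), Thbs4 in C57BL/6 (0.62 ± 0.14) without MRL/MpJ replicate 3 or C57BL/6 replicate 1 or 4 (down to 0.50), and Mkx in STR/ort (0.62 ± 0.14) without MRL/MpJ replicate 1, 3 or 4 or STR/ort replicate 1 (0.57 each). Thbs4 in STR/ort over C57BL/6 (0.61 ± 0.14) did so without C57BL/6 replicate 2 or 5 or STR/ort replicate 1 (down to 0.53) and after RUVg with 1 or 2 factors (0.57 and 0.58), and Egr2 in STR/ort over MRL/MpJ (0.72 ± 0.17) after RUVg with 2 factors (0.56).

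Other tissues differed between the injured joints as well. At 1-week after injury the synovial and fibroblast sum was 7546 to 11261 CPM in STR/ort, 2722 to 3067 CPM in C57BL/6 and 2725 to 3330 CPM in MRL/MpJ, and the bone sum was 2320 to 3184, 1172 to 1616 and 1119 to 1597 CPM. The fast muscle sum was 18089 to 39557, 36760 to 71268 and 57270 to 95368 CPM, and that of marrow neutrophils 8099 to 11560, 12360 to 13937 and 13491 to 17892 CPM. Of the 9 lists, 5, 7 and 3 were apart between STR/ort and MRL/MpJ at the successive times, 4, 5 and 1 between STR/ort and C57BL/6, and 2, 1 and 2 between C57BL/6 and MRL/MpJ. At 1-day STR/ort joints were higher than MRL/MpJ joints for cartilage, bone, synovium and macrophages and lower for fast muscle, and against C57BL/6 they were higher for bone, synovium and marrow neutrophils and lower for macrophages. C57BL/6 joints were higher than MRL/MpJ joints for macrophages and lower for marrow neutrophils. At 2-weeks cartilage, bone and synovium were higher in STR/ort than in MRL/MpJ, synovium was higher in STR/ort than in C57BL/6, and cartilage and bone were higher in C57BL/6 than in MRL/MpJ. Their part in the strain differences after injury was not tested.

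Within batch 1 the times could be compared. In injured STR/ort joints 6 of 7 members rose from 1-day to 1-week (9.02% of all genes), with Egr2 the exception at -0.22 ± 0.24. Tnmd went from 32.0, 55.5, 34.7, 43.9 and 82.2 CPM to 329, 298, 319, 356 and 342 CPM and Kera from 24.6, 47.4, 25.4, 32.7 and 46.0 CPM to 184, 159, 197, 187 and 164 CPM. The log2 fold changes of 2.73 ± 0.24 and 2.35 ± 0.22 (adjusted p = 1.43e-14 and 2.09e-13) were the largest increases of a member in the time comparisons. Scx rose by 1.41 ± 0.17, Mkx by 1.27 ± 0.18, Tppp3 by 0.86 ± 0.15 and Thbs4 by 0.71 ± 0.17. In MRL/MpJ 3 of 7 rose (2.26%): Kera by 2.02 ± 0.24, Tnmd by 1.76 ± 0.25 and Tppp3 by 1.06 ± 0.16, while the value for Scx was 0.03 ± 0.19. In C57BL/6 Tnmd rose by 0.82 ± 0.24 (1.73% of all genes rose) and Thbs4 fell by 0.78 (SE 0.17; 2.73% fell). From 1-day to 1-week the marrow neutrophil sum in injured STR/ort joints went from 12649 to 15397 CPM to 8099 to 11560 CPM. In injured C57BL/6 joints the synovial and fibroblast sum went from 3224 to 4520 CPM to 2722 to 3067 CPM, the macrophage sum from 644 to 779 CPM to 416 to 481 CPM and the fat sum from 443 to 556 CPM to 307 to 430 CPM. These 4 were without overlap, and their part in the changes was not tested. In injured MRL/MpJ joints 0 of the 9 lists were apart between these times.

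In contralateral joints the change from 0-day was tested within each strain, and a difference of these changes between strains was not tested. In C57BL/6, 4 of 7 members were lower at 1-week than at 0-day (4.84% of all genes). Kera fell from 43.5, 45.4, 45.2 and 70.3 CPM to 15.7, 23.0, 23.9, 14.0 and 21.4 CPM, with no overlap. The log2 fold change was -1.42 ± 0.25 (adjusted p = 2.12e-05), with -1.36 ± 0.26 for Tnmd, -1.08 ± 0.18 for Thbs4 and -0.82 ± 0.22 for Scx. In STR/ort 3 of 7 were higher at 1-week than at 0-day (5.37%), Thbs4 by 0.78 ± 0.19, Tnmd by 0.88 ± 0.26 and Tppp3 by 0.64 ± 0.16, and 1 was lower (8.2%). At 1-day 2 were higher (2.58%), Thbs4 by 0.72 ± 0.18 and Tnmd by 0.73 ± 0.25, and again 1 was lower (7.35%). The lower gene was Egr2 at both times: from 50.6 to 89.2 CPM before injury it stood at 4.30 to 13.0 CPM at 1-day (-3.39 ± 0.22) and 4.90 to 6.42 CPM at 1-week (-3.63 ± 0.25). The Tnmd calls were lost without uninjured STR/ort replicate 4 at 1-week (0.43), and at 1-day without STR/ort 0-day replicate 4 or 1-day replicate 2 or 4 (0.58 to 0.61, adjusted p up to 0.116) and after RUVg with 2 factors (0.99). Thbs4 at 1-day was lost without 1-day replicate 2 (0.56), and Tppp3 at 1-week without 1-week replicate 1, 2 or 4 (0.52 to 0.58). In MRL/MpJ edgeR called 0 of 7 at 1-day (0.0924% of all genes; 0 at an unadjusted p below 0.05) and 0 of 7 at 1-week (0%; 1, Scx), and in C57BL/6 0 of 7 at 1-day (0.0693%; 2, Tnmd and Scx), and DESeq2 called 0 in each. Of the tendon matrix genes, 13 of 14 were lower in C57BL/6 at 1-week than at 0-day (median -1.02), 10 were higher in STR/ort (median 0.76), and 14 of 14 rose in injured STR/ort joints from 1-day to 1-week (median 1.41). The fast muscle sums in C57BL/6 were 42506 to 68999 CPM at 0-day and 54148 to 93720 CPM at 1-week. In STR/ort they were 98122 to 113987 CPM at 0-day, 38887 to 67778 CPM at 1-day and 35689 to 67940 CPM at 1-week, and at the same times the synovial and fibroblast sums were 2735 to 6362, 6757 to 9542 and 6358 to 19032 CPM. In C57BL/6 the synovial and fibroblast sums were 1750 to 2930 CPM at 0-day and 1004 to 1462 CPM at 1-week, and the bone sums 2309 to 3246 CPM and 1363 to 1959 CPM, both without overlap. The immediate early sum in STR/ort went from 1488 to 2503 CPM at 0-day to 338 to 1096 CPM at 1-day and 332 to 520 CPM at 1-week, beside the fall of Egr2. In STR/ort the bone sums were 2018 to 2808 CPM at 0-day and 2829 to 4142 CPM at 1-week, and the macrophage sums 280 to 353 CPM at 0-day, 438 to 515 CPM at 1-day and 407 to 591 CPM at 1-week, again without overlap with 0-day. In C57BL/6 the macrophage sum was also lower at 1-week than at 0-day (366 to 436 against 440 to 473 CPM) and that of slow muscle higher (292 to 828 against 82.5 to 141 CPM). The part of these sums in the changes was not tested.

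**Figure D4:**
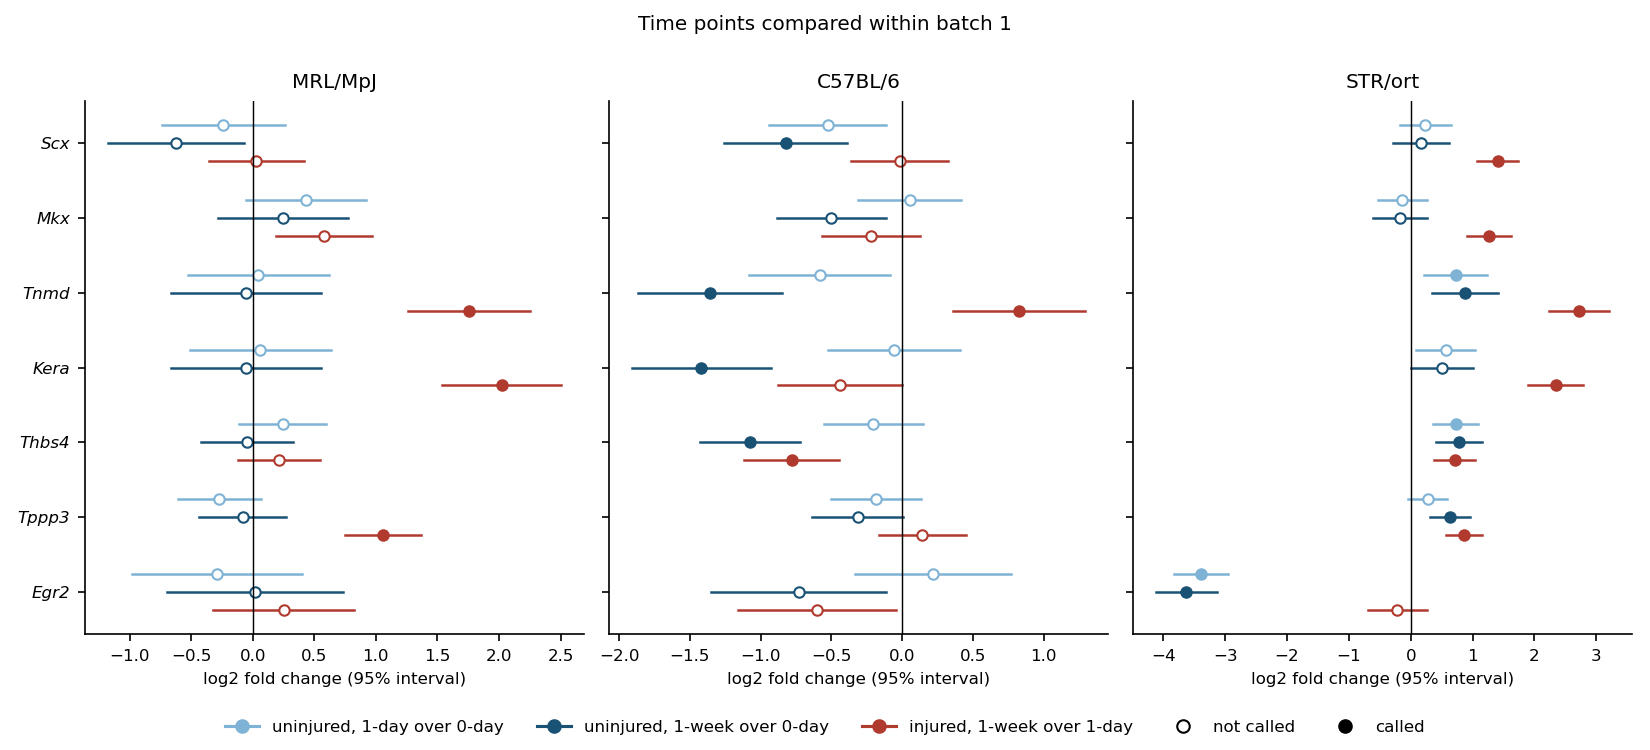
Log2 fold change of each gene between times within batch 1, by strain, with 95% intervals from edgeR (the horizontal scale differs between panels). Filled points were called and open points were not. In injured joints Tnmd rises from 1-day to 1-week in all 3 strains, and Egr2 in uninjured STR/ort joints is lower at both times than at 0-day.

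The members were also compared with each other. Over the 21 group means of log2 CPM (prior count 2), Tnmd and Kera had a Pearson correlation of 0.956, Tnmd and Thbs4 one of 0.863, Mkx and Kera one of 0.850 and Scx and Kera one of 0.770. After the group mean was taken out, the 100 libraries still gave 0.854 for Tnmd with Kera and 0.746 for Tnmd with Thbs4, against 0.366 for Tnmd with Scx. The correlations of Tppp3 over group means ran from 0.155 with Thbs4 to 0.582 with Kera, and those of Egr2 from 0.172 with Scx to 0.409 with Thbs4. These values describe joints that share strain, time and dissection, and no p was computed. Within groups the members correlated with the fast muscle sum at 0.034 (Mkx) to 0.350 (Tppp3), and with the tendon matrix sum at -0.157 (Egr2) to 0.349 (Thbs4). Tnmd stood at 0.327 with muscle and 0.257 with tendon matrix, and Kera at 0.325 and 0.178. The members correlated with the summed tendon regulators and growth factors at 0.274 (Mkx) to 0.569 (Tnmd), with 0.475 for Kera. With the summed marrow neutrophil genes they stood between -0.506 (Scx) and -0.134 (Egr2), and Egr2 correlated with the immediate early sum at 0.60.

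**Figure D5:**
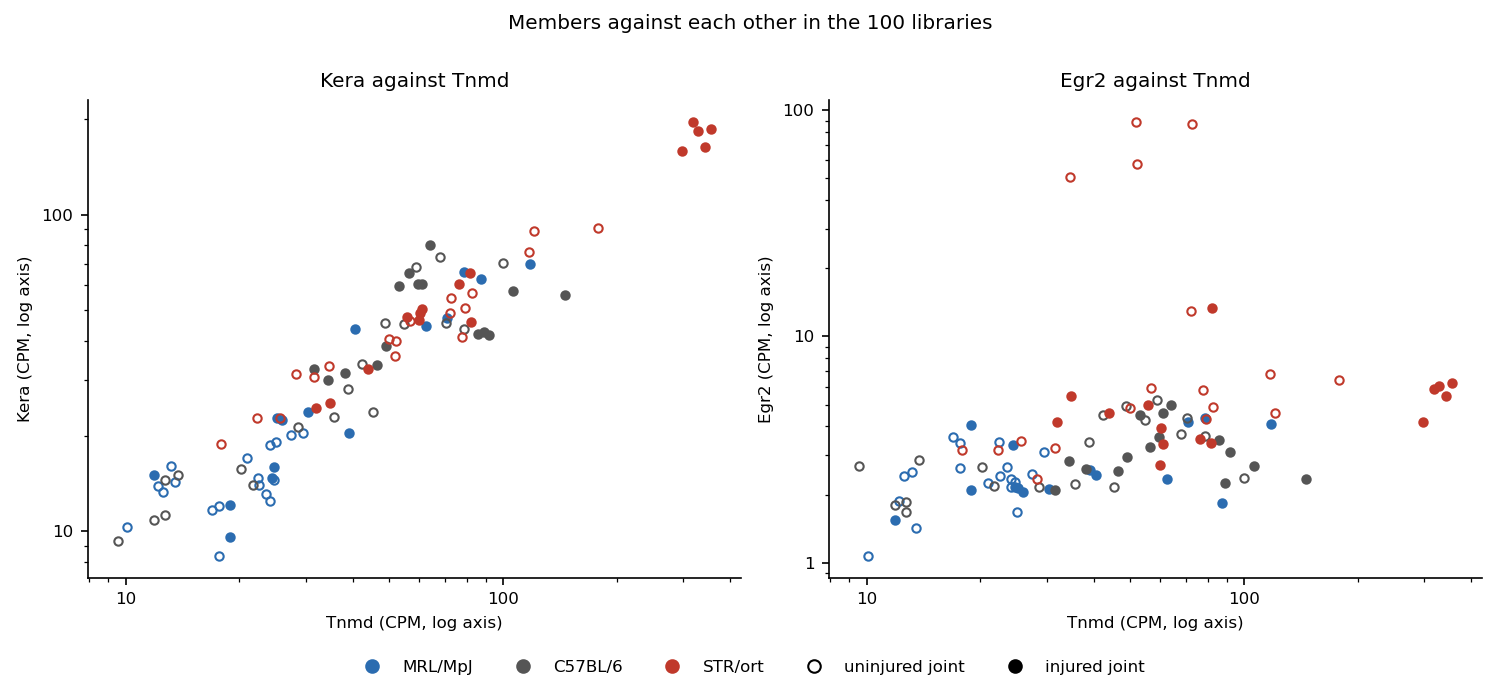
Kera against Tnmd and Egr2 against Tnmd in the 100 libraries (CPM, log axes), colored by strain, with filled points for injured and open points for uninjured joints. Kera and Tnmd are high in the same libraries for the most part (r = 0.956 over the 21 group means), and Egr2 leaves the other libraries in the 4 STR/ort libraries at 0-day.

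Among 14410 genes with a mean of at least 1 CPM, the genes whose 21 group means were most like those of each member were as follows. For Tnmd they were Ssc5d (r = 0.979), Itgbl1 (0.972) and Pkd2 (0.969). Those of Kera were Abi3bp (0.977), Dpt (0.964), the gene of the matrix protein dermatopontin, and Zcchc5 (0.959). Thbs4 was closest to Vim (0.978), which encodes the filament protein vimentin of mesenchymal cells, and to Snx7 (0.974), besides 1 gene whose name a spreadsheet had turned into a number. Scx was closest to Lamc1 (0.952), a laminin chain of basement membranes, Cul7 (0.947) and Grb10 (0.945). For Mkx they were Ogn (0.929), a leucine-rich proteoglycan like Kera, Nid1 (0.922) and Fam171b (0.915), and for Tppp3 they were Clec3b (0.931), Plxdc1 (0.909) and Ndufa4l2 (0.903). Egr2 alone was closest to immediate early genes, Egr1 (0.963), Fos (0.951) and Fosb (0.922).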

How the data were processed

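Poly(A)-enriched libraries (TruSeq) were made from total RNA of whole mouse knee joints, 100 in all. The deposited table holds raw read counts per gene, which the authors made by aligning reads to mm10 (GRCm38) with TopHat2 2.0.11 and counting with featureCounts, per the labels (strand setting not given in the sources used here). Of its 17313 entries, 3 repeated ones were dropped, and 24 names had been turned into date numbers by a spreadsheet. No sample columns were left unused. Total counts ran from 6182016 to 20986027, which leaves Mkx, Scx and Egr2 with the fewest reads. The labels gave groups and replicate numbers, and no 2 libraries of a group held identical counts (190 pairs). Where nothing says that samples came from separate animals, p-values measure the spread between these samples.

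Counts were fitted with edgeR 4.0.16 (quasi-likelihood, TMM factors 0.876 to 1.095, R 4.3.3, limma 3.58.1), separately at each time and within batch 1 for comparisons over time. Genes with at least 2 counts in 5 libraries were kept. Intervals are 95%. Scripts were tested on simulated data. 1 gene of the Schwann cell and myelin list is not reported here and was left out of its sums and counts. All 7 members were named in every comparison, list genes by the smallest adjusted p, and genes of like pattern by the highest Pearson correlation of group means. The members, lists and tests were chosen with earlier results of these data known. Alternatives were DESeq2 1.42.0 and its size factors, RUVg with 1 or 2 factors on 25 housekeeping genes, edgeR's own filter, no filter, no fold limit, all libraries in 1 fit, a replicate block, CPM without TMM and each library left out. At 2-weeks the labels name the same animal for both joints, so the numbers pair the samples there. The correlation of paired deviations was -0.311 to 0.437 (median 0.20, 15 pairs). By strain it was 0.171 to 0.253 in C57BL/6, 0.2 to 0.437 in STR/ort and -0.311 to 0.081 in MRL/MpJ. Promoters came from RefSeq (GRCm38.p6) for 4 of the 7 members.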

Additional observations from a re-analysis of the deposited data

Results flagged for a closer look

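In 7 of the 147 combinations of a member and a group, 1 library lay further from the others than Dixon's critical value at 95% allows, and chance alone flags about 5% of such groups. For Egr2, injured STR/ort replicate 5 at 1-day was high at 13.4 CPM (next 5.45 CPM), uninjured C57BL/6 replicate 1 at 1-week was high at 2.66 CPM (next 2.23 CPM) and uninjured STR/ort replicate 1 at 2-weeks was low at 2.35 CPM (next 3.16 CPM). For Kera, C57BL/6 replicate 4 at 0-day stood at 70.3 CPM (next 45.4 CPM) and injured C57BL/6 replicate 5 at 1-day at 80.4 CPM (next 65.3 CPM). Mkx was high in injured MRL/MpJ replicate 5 at 2-weeks (5.87 CPM, next 4.11 CPM), and Tppp3 in uninjured MRL/MpJ replicate 2 at 1-day (41.3 CPM, next 31.5 CPM).

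The response to injury differed between strains by the test of the difference itself in 3 cases. At 1-day the log2 change in STR/ort was below that in C57BL/6 for Kera (-1.22 ± 0.34, edgeR adjusted p = 0.0314) and for Scx (-0.93 ± 0.26, adjusted p = 0.0310). At 2-weeks the change of Scx in STR/ort was above that in MRL/MpJ (0.94 ± 0.22, adjusted p = 0.0356). These calls were lost in 9, 8 and 13 of the 20 fits that each left out 1 library, in the order given, and that of Scx at 1-day also with the replicate number as a block (adjusted p = 0.0504).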

How the results depend on the processing

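No member's fold change that was called changed sign under any alternative run. With RUVg the members called higher at 0-day went from 11 to 6 of 21 with 2 factors, those called lower from 0 to 1 with 1 factor, the decreases after injury from 3 to 0 with 2 factors, and the decreases between strains in injured joints from 2 to 1 with 1 factor. Without the fold limit 2 were lower at 0-day and 1 in uninjured joints, where 0 were called with it. The 1 increase among differences in injury response went to 0 with DESeq2's size factors, edgeR's own filter and all libraries in 1 fit, and the 2 decreases to 4 with the last. The cause was not tested. Leaving out 1 library at a time, the higher and lower calls ran from 10 to 11 and 0 to 1 at 0-day, 28 to 31 and 1 to 3 after injury, 32 to 36 and 0 to 1 between strains in uninjured joints, 33 to 37 and 2 to 2 in injured joints, 0 to 2 and 0 to 4 for the differences in response, and 13 to 17 and 7 to 8 over time. With a replicate block 31 injury increases were called in place of 29, with 3 decreases, and among differences in response 1 increase and 3 decreases. The block added Thbs4 at 1-day in STR/ort (0.61), Mkx at 1-week in MRL/MpJ (0.73) and differences for Tnmd at 1-day (STR/ort against C57BL/6) and Tppp3 at 1-week (STR/ort against MRL/MpJ, -0.74), ended that of Scx at 1-day, and changed no other call, at 2-weeks included. At 1-day and 1-week the labels share numbers only, so the block may not pair joints of the same animal there. Of the pairs, 7 of 15 and 10 of 13 correlated over 0.1. Over single genes, 2658 values under other settings kept their side of the threshold, 57 gained and 36 lost it, and with a library left out 3687, 47 and 88 did. Low counts of Mkx, Scx and Egr2 limit what could be detected.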
